A study of Mus musculus with 15 samples.

Results

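The comparison described here set a Twist1-depleted mouse mammary carcinoma line that had been given back Twist1 with the substitution S42D (3 arrays) against parental 4T1 cells (3 arrays), 6 of the 15 arrays of the study. Members were chosen by their titles alone. The 4T1 line is an established, metastatic carcinoma line of mouse mammary origin. The other 9 arrays, 3 per line, came from Twist1-depleted cells (Tw1KD), depleted cells given wild-type Twist1, and depleted cells given Twist1 with the substitution S42A. They entered the fit and served as side-by-side values. Per the labels, all cells were kept in DMEM under G418 (800 µg/ml) together with puromycin (4 µg/ml) until they were 70% confluent, and 100 ng of total RNA was amplified and biotin-labelled for each array. The protocol names the drugs for all cells and says nothing separate about the parental cells. The genotype field of the S42D samples names both substitutions together, so their identity rests on the title. How Twist1 was depleted, what promoter drives the returned Twist1, and whether each line is a clone or a pool are not given in the sources used here. Each line was prepared as triplicates, and no label says that these were separate cultures, so the p-values measure only the spread between these arrays, which may be technical.

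Twist1 is a basic helix-loop-helix transcription factor that binds the short DNA site called the E-box. It is known for driving epithelial-to-mesenchymal transition (EMT), in which carcinoma cells give up E-cadherin and other junction proteins, take on matrix and motility genes, and invade. The serine replaced in the S42D protein is a known phosphorylation site of the kinase Akt. Aspartate carries a negative charge and is widely used to mimic a phosphorylated serine, while alanine cannot be phosphorylated.

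Values are log2 intensities of Affymetrix probe sets as deposited, 1 probe set (the brightest) for each of 19937 genes. A difference is the S42D mean minus the parental mean on the log2 scale, ± its standard error from limma, with 3 arrays per line. A gene was called when its 2-sided limma p, Benjamini-Hochberg adjusted over all genes, was under 0.05. The 6 arrays resembled each other closely within a line (r over the 19937 genes 0.9979 to 0.9985 among parental arrays and 0.9985 to 0.9989 among S42D arrays) and less between lines (0.9844 to 0.9871). The median spread of a gene between arrays (SD) was 0.066 in parental cells and 0.0616 in the S42D line. No array stood apart from its line. In all, 7378 genes (37%) were called, 3944 higher (19.8%) and 3434 lower (17.2%) in the S42D line, so that 53.5% of the calls were higher. That split moved to 73% of 6589 calls when each array was centred on its own median, and was 54.1% after quantile normalization. Calls were mostly small. The 3 S42D arrays did not overlap the 3 parental arrays for 47.9% of all genes. Calls of at least 1.5-fold took in 999 genes that rose (5.01%) and 504 that fell (2.53%). At least 2-fold differences were called for 356 genes that rose (1.79%) and 205 that fell (1.03%), and at least 4-fold ones for 83 (0.416%) and 47 (0.236%). Counts of list members called against parental cells are to be read against the shares of 19.8% and 17.2%. Against Tw1KD cells, 21.7% of all genes were called in each direction. The shares called higher and lower were 20.7% and 22.6% against the wild-type Twist1 line, and 17.1% and 19.1% against the S42A line. Above and below all 4 other lines they were 5.18% and 2.19%. Counts in those comparisons are to be read against these shares. A line mean under 5.50, the 25th percentile of all line means, is called dim, and whether a dim probe set lies above background cannot be told from these values.

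Twist1 itself was not called between the S42D line and parental cells. Its probe set read 9.01, 9.03 and 9.07 in the parental arrays and 9.07, 8.96 and 8.97 in the S42D arrays, so the groups overlapped. The difference was -0.034 ± 0.08 (95% interval -0.21 to 0.14, adjusted p = 0.78). The S42D mean lay 1.65 above the Tw1KD mean of 7.35 (adjusted p = 5.2e-10), 0.67 above the wild-type Twist1 line at 8.33 (adjusted p = 6.2e-06) and 0.29 above the S42A line at 8.70 (adjusted p = 0.0089). It is not known whether this probe set reads the introduced transcript, the cells' own, or both.

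The 25 genes that differed most between Tw1KD and parental cells fell into separate groups in the S42D line. They were picked on the same parental arrays, so their values are a description. Of the 15 genes that were low in Tw1KD cells, 4 were not called against parental cells in the S42D line, 9 were called lower and 2 were called higher. Activin A subunit Inhba, a ligand of the TGF-beta family, read 10.54, 10.35 and 10.61 in parental cells and 10.57, 10.36 and 10.48 in the S42D line, a difference of -0.031 (95% interval -0.24 to 0.18). Igfbp7, a secreted insulin-like growth factor binding protein, read 12.80, 12.87 and 12.82 against 12.84, 12.81 and 12.84, a difference of 0.0035 (interval -0.18 to 0.19). The arrays of the lines interleave in both genes. The interval of Tgfb2, a TGF-beta ligand, ran from -0.35 to 0.036, and it was called lower (-0.21, adjusted p = 0.039) with array weights. Hsd17b11, a dehydrogenase of steroid and lipid metabolism, read 10.55, 10.52 and 10.61 in parental cells and 10.78, 10.78 and 10.83 in the S42D line. Its groups did not overlap, and its difference of 0.24 had an adjusted p of 0.076. It was called higher under 4 alternatives: with median-centred arrays (0.32, adjusted p = 0.027), with array weights (0.039), with the replicate block (0.049) and with only the parental and S42D arrays fitted (0.0046). The other lines were lower in all 4 genes: the S42D line exceeded the wild-type Twist1 line by 2.32 for Inhba, 1.49 for Tgfb2 and 0.99 for Hsd17b11, and the S42A line by 2.67, 1.01 and 5.81 in the same order (called in limma each time), and Igfbp7 had means of 11.83 and 11.58 in those lines. Pdgfra, the PDGF receptor alpha and no member of the 25, had a difference of 0.092 from parental cells (interval -0.00048 to 0.18, adjusted p = 0.11; called higher, at 0.17, with median-centred arrays), and stood 1.54 above the wild-type Twist1 line and 0.53 above the S42A line.

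**Figure D1:**
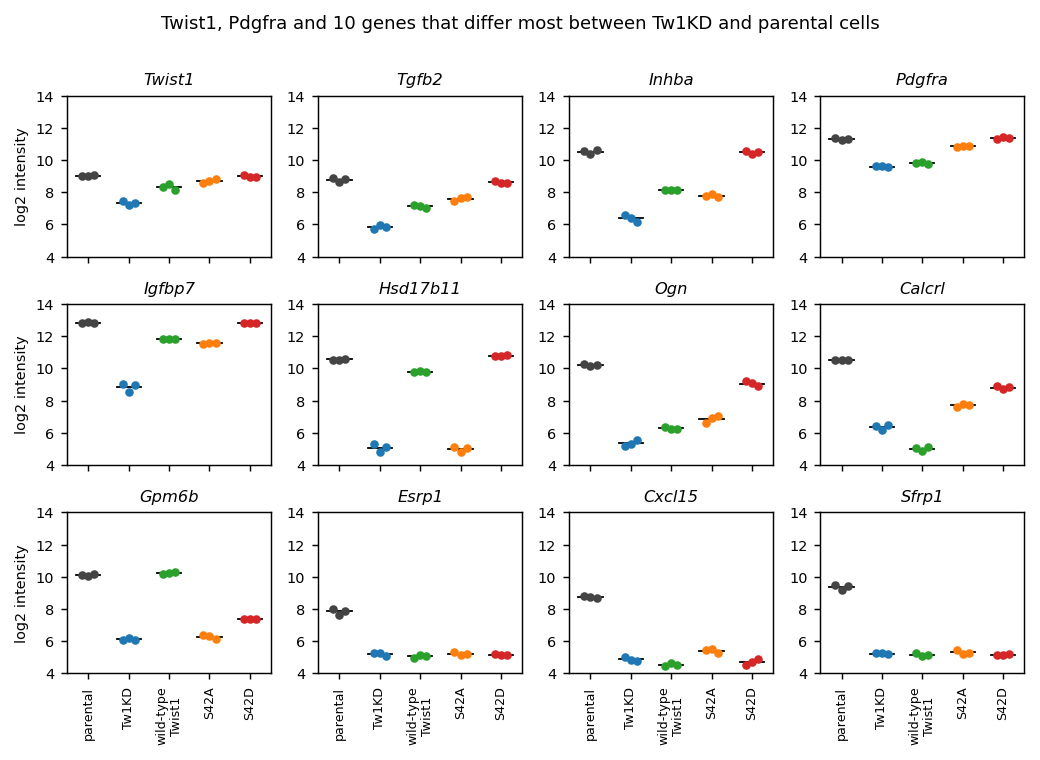
Each panel plots the log2 intensity of a gene on the 3 arrays of each line (points) with the line mean (bar); all panels share the same scale. Inhba, Igfbp7, Tgfb2 and Hsd17b11 lie at nearly the same height in parental and S42D cells, Ogn and Calcrl lie between the Tw1KD and parental levels, and Esrp1, Cxcl15 and Sfrp1 lie at the Tw1KD level.

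Other genes of this set stayed low. Sfrp1, a secreted antagonist of Wnt ligands, read 9.49, 9.16 and 9.41 in parental cells and a dim 5.13, 5.17 and 5.19 in the S42D line (-4.19 ± 0.081, adjusted p = 9.3e-14). It had the largest fall among called genes, with predicted and clone-named gene models passed over. The chemokine Cxcl15 went from 8.83, 8.77 and 8.70 to 4.54, 4.69 and 4.91 (-4.06 ± 0.095). Both genes had Tw1KD, wild-type Twist1 and S42A means of 5.42 or less, so none of the derived lines held the parental level. The splicing regulator Esrp1 (-2.70) likewise lay at 5.15 in the S42D line and between 5.05 and 5.22 in the 3 other derived lines. Intermediate levels were seen for Ogn, a small matrix proteoglycan (10.20 in parental cells, 9.06 in the S42D line, 5.34 in Tw1KD), and Calcrl, the receptor shared by adrenomedullin and CGRP (10.50, 8.81 and 6.35). The myelin-related membrane protein gene Gpm6b read 7.39 on all 3 S42D arrays against 10.08, 10.04 and 10.16 in parental cells (-2.70 ± 0.063), and the wild-type Twist1 line, at 10.23, was 2.84 above the S42D line. Values equal on all 3 arrays occurred for 46 genes in the S42D line (0.231%) and 30 in parental cells (0.15%). Above the parental level stood Col6a1, a chain of collagen VI (2.04), and Plat, tissue plasminogen activator (0.96). Of the 10 genes that were high in Tw1KD cells, 4 were called lower, 4 higher and 2 were not called. The immune receptor gene Lilr4b, a member of a family of near-identical genes, was the farthest above parental cells (2.24) and lay at 7.10, 4.85 and 10.31 in S42D, parental and Tw1KD cells.

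Epithelial junction genes were lower in the S42D line, with a few that were higher. Of 33 measured junction genes, 18 were called lower (54.5%) and 5 higher (15.2%) in the S42D line, with a median difference of -0.39 against -0.031 over all genes. Cdh1, encoding E-cadherin of the adherens junction, read 10.33, 10.31 and 10.29 in parental cells and 7.58, 7.46 and 7.46 in the S42D line. This is a 7-fold lower value (-2.81 ± 0.045, adjusted p = 4.5e-14), with no overlap between the lines. Cldn4, a tight junction claudin, read 11.23, 11.11 and 11.15 against 6.79, 7.22 and 7.45, 16.1-fold lower (-4.01 ± 0.12, adjusted p = 1.1e-11). St14, the membrane serine protease matriptase, read 10.19, 10.02 and 10.18 against 6.81, 6.84 and 6.78, 9.98-fold lower (-3.32 ± 0.06). The S42D arrays were the lower ones throughout, by far more than the array spread. Epcam, an epithelial adhesion molecule, fell by 2.73 from a parental mean whose arrays spread widely (7.91, 8.37 and 8.80) to 5.49, 5.69 and 5.71. By compartment, 9 of 13 tight junction genes fell, 3 of 8 desmosome genes, 2 of 5 cadherin and catenin genes, and 4 of 7 surface and protease genes. Desmoplakin (Dsp) fell by 2.03, desmoglein 2 (Dsg2) by 1.62, Mpzl2 by 2.33, Marveld2 by 1.41 and Cldn3 by 1.19. Not every junction gene followed. Occludin (Ocln) rose from 9.57, 9.45 and 9.64 to 10.02, 9.90 and 9.89 (0.39 ± 0.078), Cldn6 rose by 0.79, alpha-catenin (Ctnna1) by 0.39, and beta-catenin (Ctnnb1, 0.08) and p120-catenin (Ctnnd1, -0.021) were not called. The rise of Ocln was not called in a test against a 1.2-fold difference (adjusted p = 0.43).

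The junction genes were also compared with the 3 other derived lines. Against Tw1KD cells, in which Cdh1, Cldn4, Epcam and St14 stood above the parental level, 20 of 33 were called lower and 6 higher, where 21.7% of all genes were called in each direction. Against the wild-type Twist1 line 8 were lower and 10 higher, and against the S42A line 1 was lower and 12 were higher (over all genes 22.6% and 20.7%, and 19.1% and 17.1%). Cdh1 in the S42D line lay 1.02 below the wild-type Twist1 line and 1.17 above the S42A line (adjusted p = 1.9e-10 and 6.6e-11). Cldn4 was 2.61 below the wild-type Twist1 line (adjusted p = 4.1e-10) and -0.15 from the S42A line (adjusted p = 0.42). Epcam was not called against either (-0.026 and 0.082). St14 was the only junction gene called below all 4 other lines, 0.37 under the nearest, the S42A line. Ctnna1 and Spint2, an inhibitor of membrane serine proteases, were called above all 4. Ocln stood 2.30 above the wild-type Twist1 line and 1.97 above the S42A line, and its difference from Tw1KD cells was not called (-0.15, adjusted p = 0.14).

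**Figure D2:**
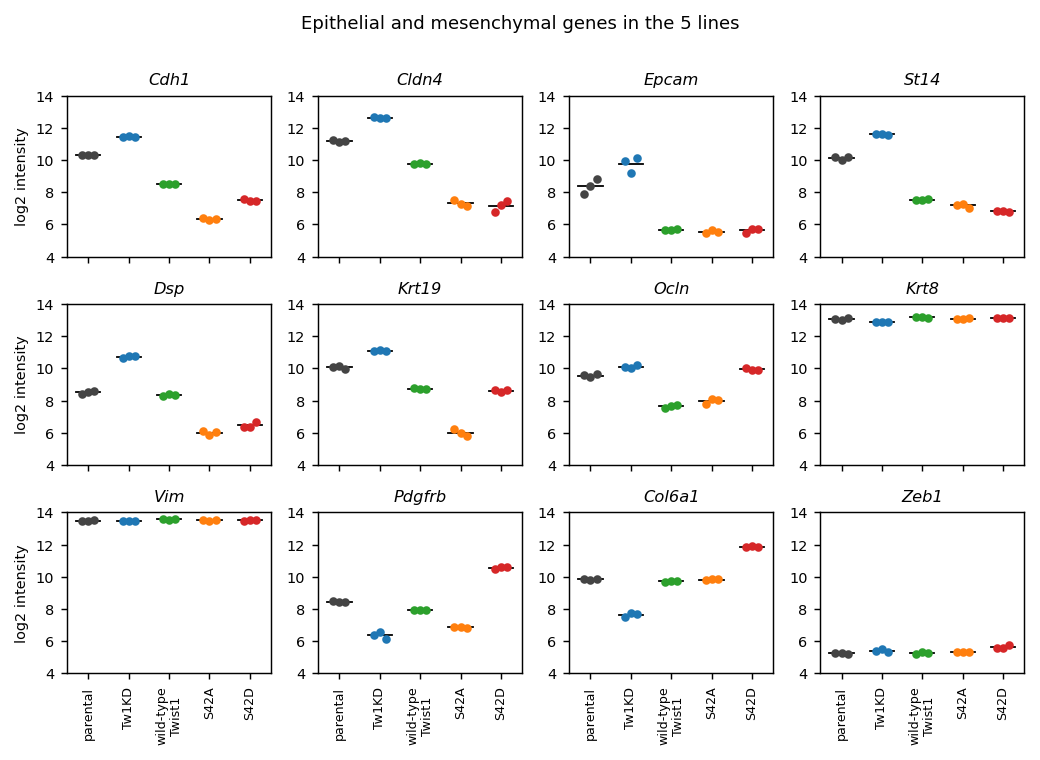
Log2 intensities of 8 epithelial and 4 mesenchymal or EMT genes on the 3 arrays of each line (points), with line means (bars), on a common scale. Cdh1, Cldn4, Epcam, St14 and Dsp drop well below the parental arrays in the S42D line and Krt19 less so, while Krt8 and Vim stay level across the lines and Pdgfrb and Col6a1 are highest in the S42D line.

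Promoters of some genes that fell and some that rose are shown because Twist1 acts through the E-box. The genes were picked by hand, and no promoter entry was available for Cdh1 or Cdh5. The E-box was searched as CANNTG, which reads as a member of the same class on both strands. Each line below holds the 250 bases before the transcript start, read on the gene's strand, from RefSeq on GRCm38.p6, with each E-box in capitals. Cldn4 (chr5:134946935-134947184, minus strand) and Epcam (chr17:87635729-87635978, plus strand) fell, and Cd53 (chr3:106790150-106790399, minus strand) and Col6a1 (chr10:76726045-76726294, minus strand) rose.
Cldn4: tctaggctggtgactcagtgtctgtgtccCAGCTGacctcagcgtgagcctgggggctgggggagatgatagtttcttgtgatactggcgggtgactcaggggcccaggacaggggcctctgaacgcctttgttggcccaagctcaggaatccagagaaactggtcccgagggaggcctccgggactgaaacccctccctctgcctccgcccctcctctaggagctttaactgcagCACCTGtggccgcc
Epcam: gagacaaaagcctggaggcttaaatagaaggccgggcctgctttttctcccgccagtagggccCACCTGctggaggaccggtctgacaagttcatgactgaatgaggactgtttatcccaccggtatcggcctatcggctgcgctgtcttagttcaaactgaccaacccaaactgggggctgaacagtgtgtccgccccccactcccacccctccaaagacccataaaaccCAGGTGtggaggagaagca
Cd53: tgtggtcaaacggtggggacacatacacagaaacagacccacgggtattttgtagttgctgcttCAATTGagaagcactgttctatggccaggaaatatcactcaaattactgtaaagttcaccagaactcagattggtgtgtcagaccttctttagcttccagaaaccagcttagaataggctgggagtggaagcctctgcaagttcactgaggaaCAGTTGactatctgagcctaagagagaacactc
Col6a1: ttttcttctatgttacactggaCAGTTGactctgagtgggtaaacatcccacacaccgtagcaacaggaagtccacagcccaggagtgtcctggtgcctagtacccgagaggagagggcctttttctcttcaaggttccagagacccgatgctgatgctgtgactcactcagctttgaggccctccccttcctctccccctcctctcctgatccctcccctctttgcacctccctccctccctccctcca
The first 3 hold 2 E-boxes each and the last holds 1. In Cldn4 they are CAGCTG, first base at -221 from the start, and CACCTG, at -14. In Epcam they are CACCTG, at -187, and CAGGTG, at -19. In Cd53 they are CAATTG and CAGTTG, at -186 and -33, and in Col6a1 the match is CAGTTG, at -228. At least 1 E-box occurs in 66.2% of 32851 promoters of this length and at least 2 in 31.8%, so such counts are common. A match is a description, and no binding was measured.

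Keratins are the intermediate filament proteins of epithelia. Of 12 measured, 3 were called lower and 1 higher. Krt8 read 13.04, 13.03 and 13.10 in parental cells and 13.11, 13.12 and 13.10 in the S42D line (0.053, 95% interval -0.021 to 0.13), and Krt18 differed by 0.022 (interval -0.065 to 0.11). Krt19 fell from 10.09, 10.12 and 9.99 to 8.68, 8.55 and 8.64 (-1.44 ± 0.081), whereas Krt7 rose from 10.90, 10.78 and 10.98 to 11.66, 11.78 and 11.74 (0.84 ± 0.056). The call for Krt14 (-0.22, adjusted p = 0.045) was lost when any of several single arrays was left out (adjusted p of 0.1 and 0.19 without the first and second S42D array), and also with the replicate block (0.061), quantile normalization (0.24) and median-centred arrays (0.26). Krt23 was called by a similar margin (-0.33, adjusted p = 0.043). With an array left out, the count of called keratins ranged from 2 to 4. Among 19 regulators of epithelial identity, 6 fell and 1 rose. Esrp1 and Esrp2, which direct epithelial splice forms, fell by 2.70 and 0.61, and Klf4 fell by 0.58, while Grhl2 (0.20), Ovol1 (-0.23) and Ovol2 (-0.076) were not called.

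Among 24 transcription factors tied to EMT, 8 rose (33.3%) and 4 fell (16.7%), nearly all by small amounts. With chromosome medians removed, the counts were 5 and 5, and those of the 6 core factors went from 3 and 0 to 1 and 1. Of the core factors, Zeb1, dim in parental cells, read 5.26, 5.25 and 5.23 in parental cells and 5.57, 5.58 and 5.74 in the S42D line (0.38 ± 0.058), and it was called above all 4 other lines. Snai1 rose by 0.30 and Zeb2 by 0.13, while Twist2 (0.024), Snai2 (-0.097) and Snai3 (-0.029) were not called. Snai2 is dim in every line. It was called lower (-0.37) when chromosome medians were removed, an alternative described with the chromosome values below. That removal takes the same value from all genes of a chromosome on an array, dim or bright. On chromosome 16, which holds Snai2, the median difference was 0.072 over all genes and 0.56 over the brighter ones. Those are medians of differences between the lines, whereas the removal uses each array's own median intensity over the chromosome's genes. The lower call of this dim gene cannot be told apart from an effect of the subtraction. The Id proteins bind helix-loop-helix factors and keep them from DNA. Id3 fell from 8.42, 8.43 and 8.53 to 7.16, 7.14 and 7.12 (-1.32 ± 0.082), below each of the other lines, whose means lay between 8.42 and 8.64. Id1, Id2 and Id4 rose by 0.38, 0.49 and 0.52. The architectural factor Hmga2 rose by 0.44, and Sox4 and Foxc1 fell by 0.63 and 0.55.

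Classic mesenchymal markers did not rise as a group. Of 26 measured, 7 were called higher and 5 lower, with a median of -0.013. Vimentin (Vim), the mesenchymal intermediate filament, read 13.48, 13.48 and 13.50 in parental cells and 13.49, 13.54 and 13.50 in the S42D line (0.025, interval -0.047 to 0.097). N-cadherin (Cdh2) was dim in both lines (-0.081, interval -0.21 to 0.051). It was called lower (-0.31) with chromosome medians removed, which takes the same value from dim and bright genes. Fibronectin (Fn1) was called slightly lower (-0.16 ± 0.037), a call lost with median-centred arrays (-0.078, adjusted p = 0.26). The PDGF receptor beta gene Pdgfrb rose from 8.48, 8.41 and 8.46 to 10.49, 10.58 and 10.59, 4.3-fold (2.11 ± 0.076, adjusted p = 4.7e-11). The ectonucleotidase Nt5e (CD73) rose by 0.94 and S100a4 by 0.78. The matricellular gene Ccn2 fell from 11.05, 11.02 and 11.06 to 10.19, 10.06 and 10.08 (-0.93 ± 0.047), and tenascin C (Tnc) fell by 0.61.

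Matrix genes moved in a narrow set. Of 28 collagens and small proteoglycans, 8 rose and 4 fell. Biglycan (Bgn), a small leucine-rich proteoglycan, read 7.26, 7.30 and 7.38 in parental cells and 10.85, 10.81 and 10.82 in the S42D line, 11.4-fold higher (3.51 ± 0.094, adjusted p = 2.6e-12). Col6a2 rose from 7.63, 7.43 and 7.42 to 10.17, 10.08 and 10.20 (2.65 ± 0.062), and Col6a1 rose from 9.87, 9.78 and 9.85 to 11.84, 11.90 and 11.86 (2.04 ± 0.056). These 3 genes were called above all 4 other lines, by 3.11, 2.44 and 2.04 over the nearest. Col6a3, the third main collagen VI chain, was not called (0.14). Dermatopontin (Dpt), a matrix protein that binds collagen fibrils, rose by 3.41 from a dim parental mean of 4.76, and the wild-type Twist1 and S42A lines were higher still, at 8.65 and 8.80. Col8a1 rose by 1.29 and Col5a1 by 0.59, whereas the basement membrane chains Col4a5 and Col4a6 fell by 1.36 and 0.34 and Col4a1 and Col4a2 rose by 0.39 and 0.34. The interstitial chains Col1a1 (-0.24), Col1a2 (-0.16) and Col3a1 (-0.099) were not called. Markers of fibroblasts were checked as a list: of 15, 2 were called higher (Dpt and Pdgfrb) and 1 lower (Pi16, lost without several single arrays). Their summed linear intensity ran from 3.94e+03 to 4.13e+03 in parental arrays and from 5.29e+03 to 5.65e+03 in S42D arrays, and Postn, Fap and Lum were dim in both.

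The TGF-beta pathway changed by member rather than in a direction. Of 43 measured, 12 rose and 12 fell (27.9% each), or 13 and 6 with median-centred arrays. Among the ligands, Tgfb1 rose by 0.30 and Bmp7 fell by 0.66. Among the receptors, betaglycan (Tgfbr3) rose from 10.82, 10.73 and 10.85 to 11.49, 11.51 and 11.52 (0.71 ± 0.049), Tgfbr2 rose by 0.32 and Tgfbr1 fell by 0.43. Of the Smads, the inhibitory Smad7 and Smad6 rose by 0.66 and 0.40, Smad2 rose by 0.57 and Smad3 fell by 0.37. Fstl3, which sequesters activin, fell by 0.76, and the latency protein Ltbp2 by 0.73.

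The PI3K-Akt pathway was examined because Akt phosphorylates the residue replaced here. Of 35 members, 13 rose and 15 fell (14 and 9 with median-centred arrays). Of 7 growth factor receptors, 6 fell and the other, Kit, was not called (-0.006). The count was 4 lower with median-centred arrays. Erbb3 read 7.93, 7.75 and 7.97 in parental cells and 6.75, 6.65 and 6.80 in the S42D line (-1.15 ± 0.086), Egfr fell by 0.53 and Erbb2 by 0.47. Among adaptors and kinases 8 of 16 rose and 3 fell. Mtor, the kinase of both mTOR complexes, rose from 9.99, 9.96 and 9.99 to 10.84, 10.87 and 10.83 (0.87 ± 0.044). Pik3ca rose by 0.31, Pik3r1 by 0.39 and Akt2 by 0.20, Akt1 was not called (-0.025), and Sgk1 fell by 0.67. Inpp5d, the phosphatase SHIP1 that removes a phosphate from the PI3K product, rose from 6.82, 6.76 and 6.87 to 9.04, 8.86 and 8.94, 4.38-fold (2.13 ± 0.061). Mtor and Inpp5d were called above all 4 other lines.

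Growth factors and their receptors were counted separately. Of 25 ligands, 10 rose and 5 fell (7 and 6 with chromosome medians removed), with a median of 0.007. Of 9 receptors 1 rose and 5 fell. Pdgfc, a PDGF ligand, read 9.10, 9.01 and 9.05 in parental cells and 11.04, 10.94 and 10.95 in the S42D line (1.92 ± 0.073), and the lymphatic growth factor Vegfd rose by 1.22. Calcrl and its partner Ramp1 fell by 1.70 and 1.60. Of 27 Wnt genes, 4 rose and 7 fell, led by Sfrp1 and by the ligand Wnt7b (-0.81). Of 23 brakes and early genes of ERK signalling, 12 rose (52.2%) and 4 fell: Spry4 and Dusp1, which restrain the pathway, rose by 1.12 and 0.71, while the early gene Fos fell from 8.10, 7.95 and 8.17 to 7.36, 7.47 and 7.31 (-0.69 ± 0.08).

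Cell cycle genes were the most uniform group. Of 33 genes of DNA replication 29 rose (87.9%) and none fell, with a median difference of 0.52, and of 41 mitotic genes 38 rose (92.7%) and none fell, with a median of 0.39. The lowest differences were 0.11 (E2f2) and 0.044 (Kif15), both above 0, so no member was lower by limma's unadjusted p either. Thymidylate synthase (Tyms) read 9.37, 9.35 and 9.27 in parental cells and 10.36, 10.35 and 10.38 in the S42D line (1.03 ± 0.048, adjusted p = 7.3e-10). The polymerase gene Pole rose by 0.98, the helicase subunit Mcm4 by 0.85 and cyclin E1 (Ccne1) by 0.86. Among the mitotic genes the kinesin Kif4 rose from 8.36, 8.06 and 8.39 to 9.54, 9.49 and 9.47 (1.23 ± 0.12), the checkpoint kinase Ttk rose by 0.89, and the proliferation marker Mki67 by 0.29 (11.38, 11.38 and 11.46 against 11.69, 11.83 and 11.56). Pcna, Orc1, Fen1, E2f2, Kif15, Bub3 and Ube2c were not called. For Pcna, the probe set used had a difference of 0.18, and a second of nearly the same brightness had 0.38. By limma, no gene of either list was called above all 4 other lines, the lowest adjusted p for that being 0.5. Against Tw1KD cells, 39 of 41 mitotic genes were higher in the S42D line, but 33 were lower against the S42A line and 28 lower and 2 higher against the wild-type Twist1 line. The replication genes had 20 higher and 3 lower against Tw1KD, 4 and 26 against the wild-type Twist1 line, and 4 and 16 against the S42A line. Of 14 cell cycle brakes and D cyclins, 3 rose and 2 fell, led by the inhibitor Cdkn2d (0.85) and by cyclin D2 (Ccnd2, -0.38). Of 23 targets of p53, 3 rose and 6 fell (6 and 6 with median-centred arrays), with Trp53inp1 falling from 9.87, 9.67 and 9.74 to 8.06, 7.85 and 7.76 (-1.87 ± 0.073) and Btg2 falling by 1.33. Perp, which is a p53 target as well as a desmosome gene, fell by 0.78.

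The 15 largest rises, with predicted and clone-named gene models passed over, were mixed in kind. Cd53, a leukocyte tetraspanin, read 6.19, 5.98 and 5.92 in parental cells and 11.40, 11.33 and 11.37 in the S42D line, 40.3-fold higher (5.33 ± 0.093, adjusted p = 4.5e-14). Csf2rb, the shared signalling chain of the GM-CSF and interleukin receptors, read 6.98, 6.83 and 6.45 against 11.99 to 12.07 on the 3 S42D arrays (5.27 ± 0.098); it has a near-identical copy, Csf2rb2, so the split between them is uncertain. Cdh5, encoding VE-cadherin of endothelial junctions, read 5.90, 5.54 and 5.55 against 10.66, 10.70 and 10.65, 32.1-fold higher (5.01 ± 0.087). Cd28, a T cell costimulatory receptor, rose by 4.57, the hydroxyacid oxidase Hao1 by 4.37, the complement regulator Cd59a by 4.06 from a dim 4.53, the coagulation factor chain F13a1 by 3.75 and the checkpoint receptor Havcr2 (TIM-3) by 3.68. The S42D arrays of these genes lay close together. That they did not overlap the parental arrays was a condition for naming them. Mcpt8 (4.21), Slco1a5 (4.00), Ceacam10 (3.57) and Trim30a (3.44) also belong to the 15 largest rises; they have close paralogs, so which family member was read is uncertain. The rest of the 15 were Bgn, Mxra8 and Dpt.

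Because Cd53, Cd28 and Cdh5 are known from leukocytes and endothelium, the markers that define those cell types were examined beside them. Of 19 leukocyte markers, 2 were called higher and 1, Cd14 (-0.38), lower. Ptprc (CD45) read 5.19 and 5.11 in parental and S42D cells, Adgre1 4.78 and 4.70, Itgam 5.48 and 5.40 and Cd79a 4.94 and 4.95. In all, 13 of the 19 were dim in parental cells and 11 in the S42D line. The 2 that rose were lysozyme (Lyz2, 0.65) and Cd68, a lysosomal protein of macrophages, at 8.52, 8.56 and 8.43 against 10.73, 10.66 and 10.73 (2.21 ± 0.048). The summed linear intensity of the list went from 1.32e+03 to 1.36e+03 in parental arrays to 2.51e+03 to 2.63e+03 in S42D arrays. Cd68 was the brightest member in both lines and weighs most in these sums. The median of the 19 line means went from 5.39 to 5.26. Of 12 endothelial markers, Cdh5 alone rose, while Pecam1 (5.57 and 5.52), Tek (5.17 and 5.17) and Kdr (5.38 and 5.23) were not called, and Tie1 fell by 0.26. Vwf was called lower (-0.17), a call lost with median-centred arrays (-0.089, adjusted p = 0.34), with quantile normalization (0.3), with the replicate block (0.056) and without any of 4 single arrays. The summed linear intensity of the endothelial list went from between 1.07e+03 and 1.13e+03 to between 2.52e+03 and 2.65e+03. Its brightest member was Egfl7 in parental cells (8.70) and Cdh5 in the S42D line (10.67), while its median went from 5.78 to 5.87. All 8 epithelial carcinoma markers lay above the dim level in both lines, but their median went from 10.60 in parental cells to 8.06 in the S42D line. The lowest S42D mean, that of Epcam, was 5.63. Their summed intensity, with Krt8 as the brightest member, was 2.14e+04 to 2.26e+04 in parental arrays and 1.92e+04 to 1.98e+04 in S42D arrays.

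The largest falls, with predicted and clone-named gene models passed over, were mixed in kind. After Sfrp1 came Trp53i11, a p53-inducible gene, with 11.37, 11.41 and 11.30 in parental cells and 7.21, 7.44 and 6.89 in the S42D line (-4.18 ± 0.098), then Cxcl15 and Cldn4. Ddah2, an enzyme that clears methylarginines, fell by 3.88 (10.73, 10.69 and 11.23 against 6.81, 7.11 and 7.09). The chloride channel Ano1, the transcription factor Osr1 and Dbt, a subunit of the branched-chain keto acid dehydrogenase, had differences of -3.40, -3.40 and -3.33. Itga2, the collagen-binding integrin alpha 2 chain, read 10.81, 10.76 and 10.74 against 7.79, 7.68 and 7.45 (-3.13 ± 0.09). St14, Kdf1 (-3.20), Edil3 (-3.15), Trim44 (-3.14), Tmem185b (-2.92) and Mustn1 (-2.86) completed the 15 largest. Osr1 and Mustn1 were also low in Tw1KD cells (7.03 and 6.90), whereas Ano1 (10.12), Dbt (9.95) and Itga2 (10.73) were near their parental means there.

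Genes in which the S42D line stood apart from every other line numbered 1033 higher (5.18%) and 437 lower (2.19%), by a test that the S42D mean exceeds, or falls below, each of the 4 other means (the largest of the 4 one-sided limma p-values, Benjamini-Hochberg adjusted). The lower count depended on the scaling and weights, at 192 with median-centred arrays and 714 with array weights. With a gap of at least 1 log2 unit to the nearest line they numbered 120 and 27. With predicted and clone-named gene models passed over, Cdh5 had the widest gap, 3.41 above the S42A line (adjusted p = 5.7e-12). Slc14a1, a urea transporter, read 11.86, 11.70 and 11.80 in the S42D line, 3.26 above the next line, the parental cells at 8.56, 8.49 and 8.53. Bgn, Mxra8 (a matrix-associated membrane protein), Caps2, Cd28, Sema7a and Tfpi (an inhibitor of the tissue factor pathway) followed, with gaps from 3.11 down to 2.75.

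**Figure D3:**
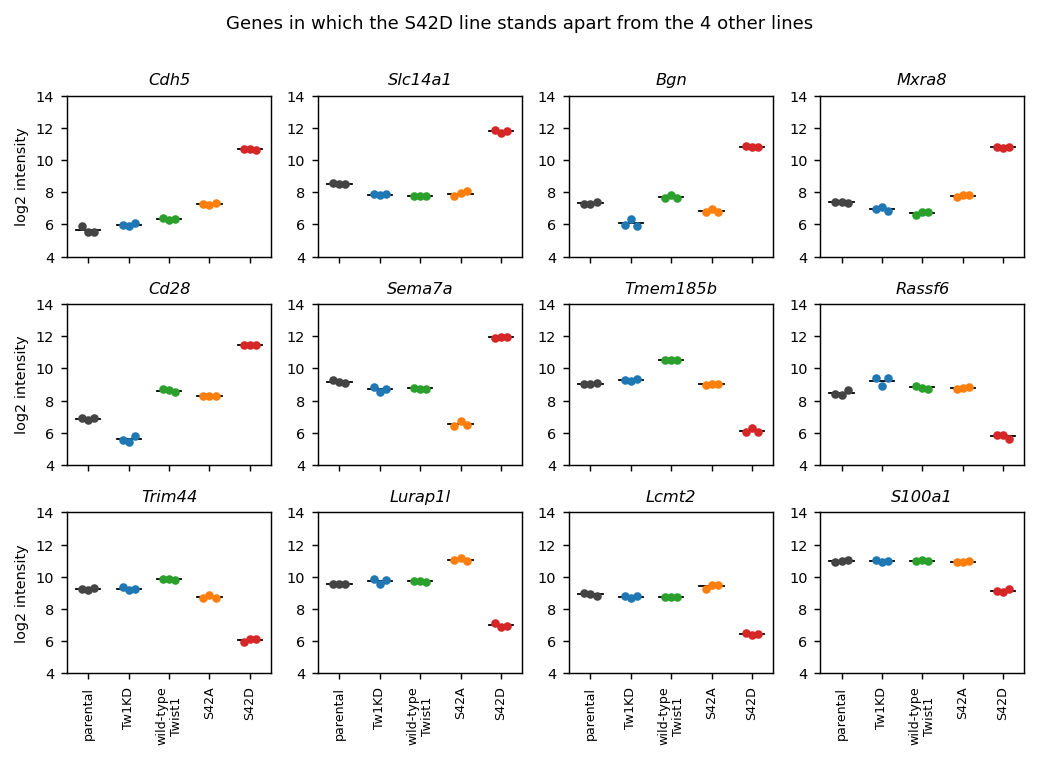
Log2 intensities of 12 genes on the 3 arrays of each line (points) with line means (bars), on a common scale: the first 6 panels show genes with the S42D line above all others, and the last 6 show genes with it below. The 3 S42D arrays lie together and clear of the 12 other arrays in every panel.

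Below all others the widest gaps, with the same models passed over, were those of Tmem185b, Rassf6, Trim44, Lurap1l, Lcmt2, Wdr31, Dusp22 and S100a1. Tmem185b read 9.05, 9.02 and 9.08 in parental cells and 6.07, 6.27 and 6.06 in the S42D line, a gap of -2.87 to the next line. Trim44, a tripartite motif protein, read 9.25, 9.16 and 9.32 against 5.98, 6.15 and 6.16. For S100a1, a calcium-binding protein, the 4 other line means lay between 10.94 and 10.99, and the S42D arrays read 9.13, 9.06 and 9.21 (-1.82 ± 0.048 against parental cells). Lcmt2, an enzyme of transfer RNA modification, and Dusp22, a phosphatase, likewise had 4 close means in the other lines (8.73 to 9.42 and 8.59 to 9.22) and S42D values of 6.44 and 6.73.

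Integrins join cells to matrix and to each other. Of 18 integrin chains 9 rose and 4 fell, and of 17 laminins and other adhesion genes 8 rose and 4 fell. In all, 10 of the 35 were called above all 4 other lines, beside 5.18% of all genes. Beside the fall of Itga2 were rises of Itgb7 (7.39, 7.22 and 7.47 to 9.68, 9.73 and 9.80, 2.38 ± 0.067), Itga7 (1.56), Itgb4 (1.19) and Itgb2 (1.06). Vcam1, a ligand of leukocyte integrins, fell from 11.07, 10.95 and 10.98 to 9.04, 8.85 and 9.07 (-2.02 ± 0.06), and Icam1 fell by 1.87. The adhesion genes Nectin3 and L1cam rose by 1.29 and 1.24. Of 26 semaphorins and their receptors, which steer axons, vessels and tumour cells, 15 rose (57.7%) and 5 fell. Of the 26, 9 were called above all 4 other lines, beside 5.18% of all genes. Sema7a read 9.27, 9.14 and 9.11 in parental cells and 11.91, 11.97 and 11.93 in the S42D line (2.76 ± 0.086), and Sema6d rose from 8.55, 8.47 and 8.54 to 10.78, 10.81 and 10.69 (2.24 ± 0.064). Sema5a rose by 0.97 and the receptor Nrp1 by 1.06, while Sema4g and the receptor Plxnb1 fell by 1.28 and 0.92.

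Among secreted signals, 12 of 33 cytokines and chemokines rose and 6 fell. Il33, an alarmin of the interleukin family, read 8.40, 8.43 and 8.45 in parental cells and 10.65, 10.58 and 10.53 in the S42D line (2.16 ± 0.14). Csf2 (GM-CSF), the ligand of the receptor that contains Csf2rb, rose from a dim 5.15, 5.28 and 5.29 to 7.28, 6.81 and 6.36 (1.57 ± 0.17), with the S42D arrays spread widely but clear of the parental ones. The monocyte chemokines Ccl2 and Ccl7 rose by 1.40 and 1.35 and Csf1 by 0.71, while the neutrophil chemokine Cxcl5 fell by 1.53, to below all 4 other lines. Of 41 interferon response genes 11 rose and 10 fell. The effectors leaned higher (8 of 22, with 3 lower): Ifit2 read 7.04, 6.95 and 7.06 against 9.88, 9.83 and 9.83 (2.83 ± 0.084), and Ifit3 and Ifit1 rose by 1.86 and 1.08. Of 10 antigen presentation genes 5 fell and 1 rose, but 3 fell with median-centred arrays and 2 with chromosome medians removed. They were led by the proteasome activator Psme1 (-0.49). Of 39 matrix proteases and inhibitors 16 rose and 7 fell. Mmp19 and stromelysin 1 (Mmp3) rose by 1.03 and 1.02, and the collagenase Mmp13 and the serine protease Prss22 fell by 1.12 and 1.86. All 5 called inhibitors of 9, among them Timp1 and Timp2, rose.

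Metabolic lists were divided. Of 20 cholesterol synthesis genes 10 fell (50%) and 6 rose, with Hmgcs1 and Idi1 down by 0.55 and 0.56 and Ebp up by 0.47. The counts were 7 lower and 6 higher with median-centred arrays, and 11 and 5 after quantile normalization. Against Tw1KD cells 15 of the 20 were higher, and against the wild-type Twist1 and S42A lines 16 and 17 were lower. Of 19 fatty acid genes 5 rose and 7 fell, a balance that turned to 6 and 3 with median-centred arrays; the acetyl-CoA carboxylase Acacb rose by 0.90 and the elongase Elovl7 fell by 1.03. ER chaperones and other ER stress genes rose in 11 of 16 cases and fell in 2 (Herpud1 and Xbp1). Pdia6 read 11.78, 11.80 and 11.80 against 12.39, 12.40 and 12.38 (0.60 ± 0.037). The 17 genes of the ATF4 stress axis had 7 falls and 1 rise (4 and 2 with median-centred arrays), led by Atf3 (-1.52). Among hypoxia and glycolysis genes 13 of 30 rose and 9 fell, and the 2 membrane carbonic anhydrases parted: Car9 fell from 11.75, 11.73 and 11.68 to 10.23, 10.12 and 10.20 (-1.54 ± 0.076) and Car12 rose by 0.81. Of 25 redox genes 10 rose and 6 fell, with heme oxygenase Hmox1 down from 9.42, 9.32 and 9.36 to 7.73, 7.81 and 7.70 (-1.62 ± 0.047) and Nqo1 up by 0.96. Of 28 mitochondrial genes 14 rose and 1 fell, and the coactivator Ppargc1a, a driver of mitochondrial gene expression, had the largest rise among them, from 5.29, 5.60 and 5.70 to a mean of 8.93 (SD 0.069, n = 3; 3.40 ± 0.11). It was 2.34 higher still in the S42A line, and the mitochondrial list as a whole was called lower against that line in 17 of 28 genes and higher in 4.

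Of 25 cell death genes 13 rose and 3 fell. The inflammatory caspases Casp4 and Casp1 rose by 1.36 and 1.16. Called above all 4 other lines were 6 of the 25, beside 5.18% of all genes: Casp4, Casp9, Gsdmd, Bid, Tnfrsf1b and the antiapoptotic Bcl2. Of 29 mammary lineage and stem markers 4 rose and 7 fell (6 and 5 with median-centred arrays). Cd24a, a luminal surface marker, fell from 12.15, 12.16 and 12.18 to 11.37, 11.04 and 11.16 (-0.98 ± 0.067), the polycomb gene Bmi1 fell by 0.44, and the estrogen receptor gene Esr1 rose by 0.59. Among 14 housekeeping genes 3 were called higher (Gusb at 0.84, Hprt at 0.42, and Sdha) and 2 lower (Tbp, -0.22, and Ywhaz, -0.094); both lower calls were lost with median-centred arrays.

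**Figure D4:**
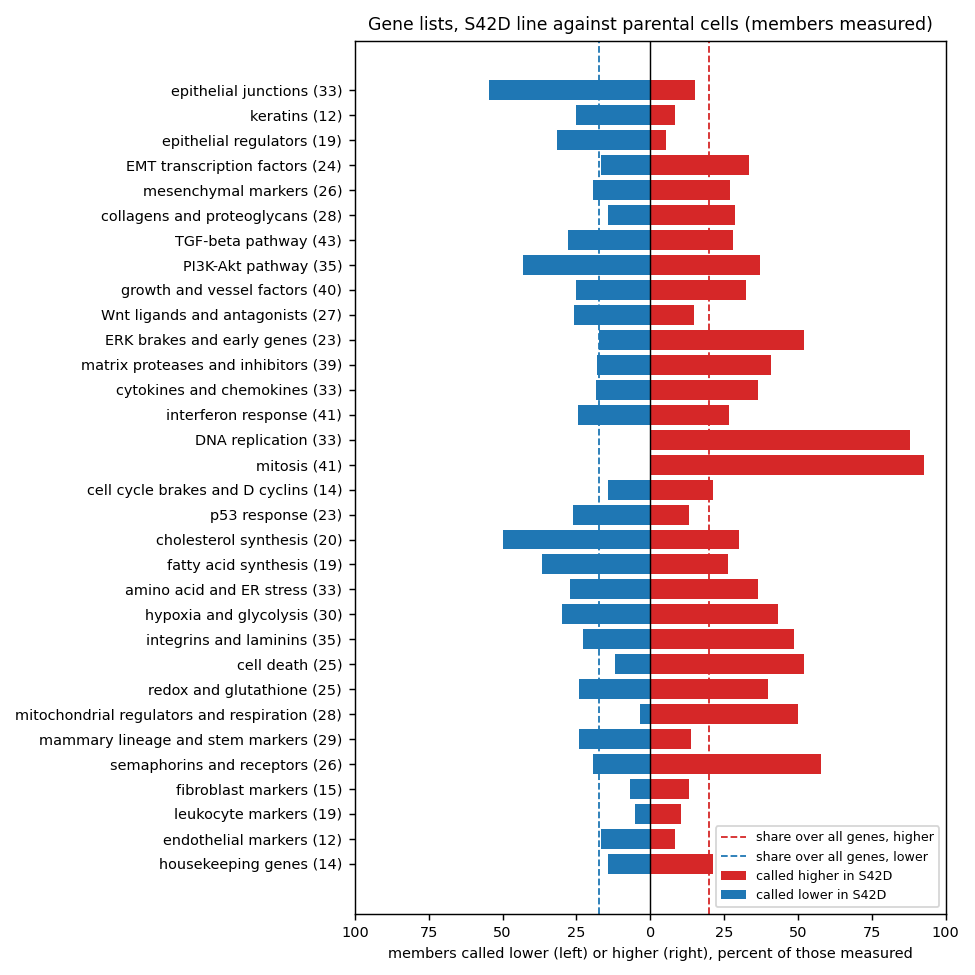
Horizontal bars give, for each gene list with its number of measured members, the percentage called higher (to the right) and lower (to the left) in the S42D line against parental cells, and dashed lines give the same shares over all genes (19.8% and 17.2%). Replication and mitosis have bars to the right only, and epithelial junctions have the longest bar to the left.

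Calls were not spread evenly over the chromosomes, a pattern looked at after the data had been seen. Genes were placed by symbol on GRCm38.p6. On chromosome 16, 43.6% of 649 genes were called higher and 6.47% lower, on chromosome 18 42.3% of 471 and 6.37%, and on chromosome 5 36% of 1143 and 7.96%. Chromosomes 8 and 19 leaned the other way, with 33.5% of 961 and 29.2% of 678 genes called lower. Among the brighter genes of chromosome 16, the S42D arrays had medians of 0.593, 0.552 and 0.524 relative to the parental mean. The parental arrays had 0.013, -0.032 and 0.020, and the 9 arrays of the other lines lay between 0.144 and 0.264, so the S42D line was above all 12. On chromosome 18 the S42D arrays (0.290 to 0.343) overlapped the wild-type Twist1 arrays (0.279 to 0.299) and the S42A arrays (0.247 to 0.298). On chromosome 5 they (0.179 to 0.223) overlapped the S42A arrays (0.189 to 0.253). Chromosome 12 also leaned higher, with 30.3% of 653 genes called higher and 10.3% lower. Its S42D arrays (0.115 to 0.180) overlapped the S42A arrays (0.155 to 0.185). The part of such offsets in single genes was not tested. Removing each array's chromosome medians takes the same value from dim and bright genes of a chromosome. After this removal, 7151 genes were called. The counts for junction genes (23 called), replication (29) and mitosis (38) were the same as without it. Other lists shifted: mesenchymal markers went from 7 higher and 5 lower to 7 and 8, housekeeping genes from 3 and 2 to 2 and 5, and semaphorins from 15 and 5 to 12 and 6, beside the EMT, growth factor and antigen presentation counts given above.

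**Figure D5:**
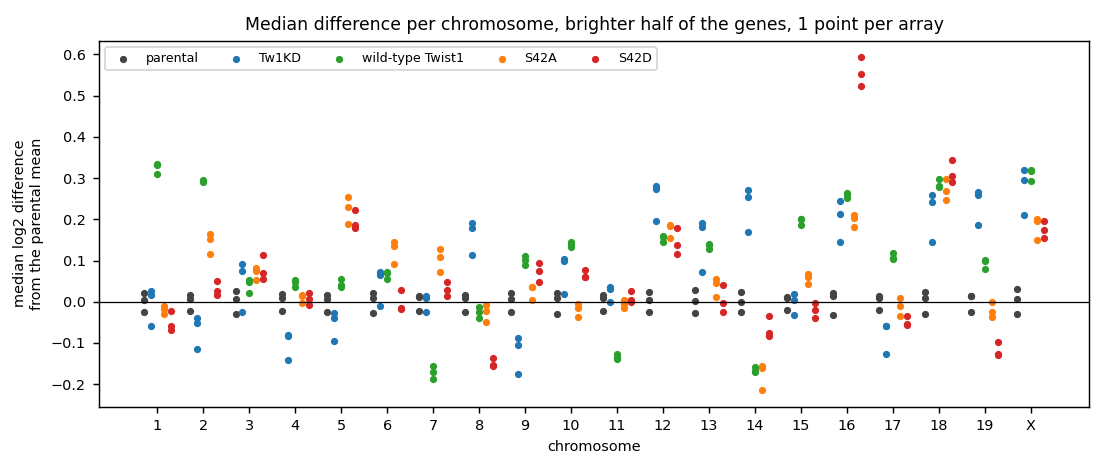
For each chromosome (x axis) a point gives, for 1 array, the median log2 difference from the parental mean over the brighter genes of that chromosome; colours mark the 5 lines. The 3 S42D points of chromosome 16 (0.524 to 0.593) stand above every other point, and those of chromosomes 8 and 19 lie below 0.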

How the data were processed

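Gene expression was measured on 15 one-colour Affymetrix arrays, 3 for each of 5 lines, of which the 3 S42D and 3 parental arrays form the comparison. The log2 intensities were used as deposited by the authors. The submitters' processing notes name R 2.10.0 and affy without a role, and the background correction, normalization and probe set summary are not given in the sources used here. Between-array normalization can move the split of higher and lower calls, so other scalings were tried. Array number limits the precision. Of 34760 probe sets, 21640 carried 1 gene symbol in the platform annotation, 1321 several and 11799 none. Of those with 1 symbol, 21553 matched the gene table, giving 19937 genes, of which 954 had several probe sets and were read by the brightest over all arrays.

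A mean per line was fitted over all 15 arrays (limma 3.58.1 in R 4.3.3, lmFit and eBayes), so the lines share an estimate of spread, with Benjamini-Hochberg adjustment over all genes. The code was tested on simulated data. Genes named in the text were the 15 largest rises and falls and up to 2 genes per list and direction. These were called genes whose S42D and parental arrays did not overlap. The 8 widest gaps to all other lines in each direction were also named. Predicted and clone-named gene models were passed over in the rises, falls and gaps. Twist1, Cdh1, Cdh2, Vim, Fn1, Snai2, Tgfb2, Pdgfra and the depletion genes were named whatever their result. Other list members named were chosen after their values were seen. The comparison and the 33 gene lists were chosen with earlier results of these data known. Comparisons against parental cells share the parental arrays, and those of the S42D line share its arrays. Alternatives were array centring, quantile normalization, array weights, a trended robust prior, a test against a 1.2-fold difference, all probe sets, mean probe sets, omission of dim genes, a fit of the 6 arrays alone, a replicate block, each array left out, and, chosen after seeing the data, removal of chromosome medians. Promoter sequences came from RefSeq.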

Additional observations from a re-analysis of the deposited data

Results flagged for a closer look

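For several genes named above, the S42D line and the line given wild-type Twist1 differed from parental cells in opposite directions, and 5 of them are given here. F13a1 (3.75 in the S42D line and -0.97 in the wild-type Twist1 line) was among the others. Both differences use the same parental arrays, so the gap between them was tested directly between the S42D and wild-type Twist1 arrays in limma, and it was called for each. Pdgfc, a PDGF ligand, had the widest gap of the 5, 5.46 on the log2 scale (1.92 in the S42D line and -3.53 in the wild-type Twist1 line). Trim30a, of a family with close paralogs, had a gap of 5.08 (3.44 and -1.64). The alarmin Il33 had a gap of 4.72 (2.16 and -2.56), and Tfpi, the inhibitor of the tissue factor pathway, a gap of 4.44 (2.75 and -1.69). Tmem185b ran the other way, with a gap of -4.40 (-2.92 and 1.47).

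Probe sets left out of the gene table also carried differences. Of the 11799 probe sets with no gene symbol, 2050 were called between S42D and parental cells, 60 of them at least 2-fold higher and 119 at least 2-fold lower. Of the 1321 with several symbols, 439 were called, 9 and 30 by at least 2-fold. Both are smaller shares than the 37% of genes called.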

How the results depend on the processing

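Of the 172 genes named by rule, 161 were called, and each alternative left unchanged 146 to 170 of the named comparisons with parental cells, in direction and side of the threshold. In the test against a 1.2-fold difference, 25 lost the call; with arrays centred on their medians, 10 did. Centring gave 1781 genes called lower, 192 below all 4 other lines and 2 keratins, and array weights gave 714 genes below all others. Testing against 1.2-fold, which asks for larger differences, left 2319 genes called (1571 higher and 748 lower), with 370 above and 67 below all other lines. Members called by that test were 2 keratins, 3 epithelial regulators, 6 EMT transcription factors, 5 mesenchymal markers, 9 each of the TGF-beta, PI3K-Akt and ERK lists, 14 growth and vessel factors, 4 Wnt genes, 11 interferon genes, 22 mitotic genes, 3 cell cycle brakes, 6 cholesterol, 4 fatty acid, and 6 amino acid and ER stress genes. The same test called 8 hypoxia, 8 cell death, 6 redox, 6 mitochondrial and 5 mammary genes, 11 semaphorins, and 1 each of the leukocyte, endothelial and housekeeping lists. With an array left out in turn, 6222 to 7416 genes were called, and 2 to 4 keratins. Removing chromosome medians turned the S42D minus wild-type Twist1 difference of Wnt3 to -0.21, of Sdf2l1 to -0.19 and of Snai2 to -0.28. These changes of sign follow from the subtraction, and whether it suits single genes was not tested. Same-numbered parental and S42D arrays did not deviate together (r of -0.017, 0.049 and -0.217), so the numbers were not taken as pairs. With the replicate block, 7129 genes were called. Probe sets near background limit what can be said of dim genes.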
